A study of Mus musculus with 12 samples.

Results

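Sca-1+ MSCs and CD51+CD140a+ MSCs are sorted mesenchymal stem cell (MSC) populations of mouse bone, and their transcriptomes were compared gene by gene in the 6 libraries labelled with these populations, 3 for each, out of 12 libraries in the series. The Sca-1+ MSCs were sorted as Alcam-Sca-1+CD45-Ter119-CD31- cells, and the CD51+CD140a+ MSCs as CD51+CD140a+CD45-Ter119-CD31- cells. Both came from wild-type male C57BL/6 mice aged 8 to 10 weeks at steady state, with 2000 cells in each library. The other libraries were of Itga8+ MSCs and of Itga8-Alcam+ bone-lining cells (BLCs), 3 each, and entered the statistical fit to share its estimate of the spread.

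The sorts also differed in where the cells were taken from. According to the study's methods, Sca-1+ MSCs were released with collagenase from fragments of femur, tibia and iliac bone after the marrow had been flushed out, whereas CD51+CD140a+ MSCs were released with Accumax from the flushed marrow of femora and tibiae. Population, bone compartment and digestion therefore cannot be told apart in this comparison. The labels do not say whether the 3 libraries of a population came from separate mice, so the p-values measure only the spread between these libraries, which may be technical.

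Bone marrow contains several kinds of mesenchymal cell. Perivascular stromal cells that carry the leptin receptor surround the sinusoids, and they are known as the main marrow source of the chemokine CXCL12 and of stem cell factor, which hold and sustain blood-forming stem cells. Sca-1, a lipid-anchored surface protein encoded by Ly6a, marks another group of fibroblast-like cells that lie around arterioles and in connective tissue attached to bone. CD51 is the integrin subunit alpha V (Itgav) and CD140a is the platelet-derived growth factor receptor alpha (Pdgfra), and together they have been used to isolate marrow stromal cells with stem cell properties.

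The deposited values are read counts for 49585 genes. The Sca-1+ libraries held 17681562, 20009106 and 21062370 counts and the CD51+CD140a+ libraries 31332475, 31165574 and 29652779, within a range of 17580677 to 31332475 over the series. A level is given below in CPM, the counts scaled to a common library size after TMM normalisation, or in TPM, which also divides by exon length, where genes of different length are compared. The limit set by 3 counts lay at 0.141 to 0.166 CPM in the Sca-1+ libraries and at 0.0820 to 0.0966 CPM in the CD51+CD140a+ libraries. Where 3 values are set against 3 others, the first 3 are Sca-1+ replicates 1 to 3 and the last 3 are CD51+CD140a+ replicates 1 to 3. Fold changes are fitted log2 values with their standard errors, and a positive value means a higher level in Sca-1+ MSCs.

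The sort itself could be read in the RNA for Sca-1. Ly6a (ENSMUSG00000075602, chr15:74994877-74998031, minus strand) stood at 659, 637 and 611 against 1.23, 0.602 and 2.42 CPM, a log2 fold change of 8.81 ± 0.69, edgeR adjusted p = 4.4e-06, or 9.43 without CD51+CD140a+ replicate 3. All 3 Sca-1+ libraries lay far above the CD51+CD140a+ libraries. Of its 50-base words, 81.0% were unique, and it shares the rest chiefly with Ly6c1. In contrast, the RNA of the proteins used for the other sort did not separate the populations. Itgav stood at 126, 150.3 and 126 against 195, 121 and 177 CPM (-0.29 ± 0.79, edgeR adjusted p = 0.89). Pdgfra stood at 1019, 869 and 734 against 682, 754 and 867 CPM (0.19 ± 0.52, edgeR adjusted p = 0.89). Both genes were expressed in every library and the groups overlapped, and the standard errors leave room for a difference of more than 2-fold in either gene. Alcam, whose protein was absent from the sorted Sca-1+ cells, was at or near the limit of detection in all 6 libraries, with at most 0.221 CPM.

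The RNA of CD45 and CD31, which were used to remove other cells, did not pass the test. Ptprc, the gene of the leukocyte antigen CD45, stood at 19.9, 7.27 and 7.45 against 11.3, 6.94 and 7.41 CPM. Pecam1, which encodes the endothelial protein CD31, stood at 5.15, 7.58 and 3.8 against 3.06, 4.07 and 4.83 CPM. Itga8, which marks the third MSC population of the study and was not used in either of these sorts, stood at 2.88, 2.09 and 1.87 against 57, 82.9 and 53.1 CPM (-4.82 ± 0.87, edgeR adjusted p = 0.0019). In the Itga8+ MSC libraries it stood at 73.5, 35.2 and 199 CPM, so the CD51+CD140a+ values lie inside that range, which was not tested. By qPCR, the paper reported lower Itga8 mRNA in CD51+CD140a+ MSCs than in Itga8+ MSCs.

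Across the transcriptome, 18648 genes reached 0.5 CPM in at least 1 library of the series and were tested. A gene was called at an edgeR quasi-likelihood adjusted p under 0.1 and a fold change above 2. By this rule 2093 genes (11.2% of those tested) were higher in Sca-1+ MSCs and 1734 (9.30%) were higher in CD51+CD140a+ MSCs. These shares are the background against which the gene groups below are read. The 6 libraries did not overlap in 1955 of the 2093 genes and in 1709 of the 1734. Among all genes tested, the Sca-1+ libraries all lay above the CD51+CD140a+ libraries in 22.7% and all lay below them in 23.2%, called or not. The change was over 8-fold in 1213 and 758 of the called genes. In 591 and 286 of them, the population with the lower level held no more than 3 counts in any of its 3 libraries. The median log2 fold change over all genes was -0.003. Beside the log2 fold change of a called gene, its value without a library is given wherever leaving that library out moved it by over 1.5 times. A further 1383 genes had an unadjusted p under 0.05 without being called. In bulk libraries of this kind, a lower level in fewer cells of a type and a lower level per cell cannot be told apart.

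**Figure D1:**
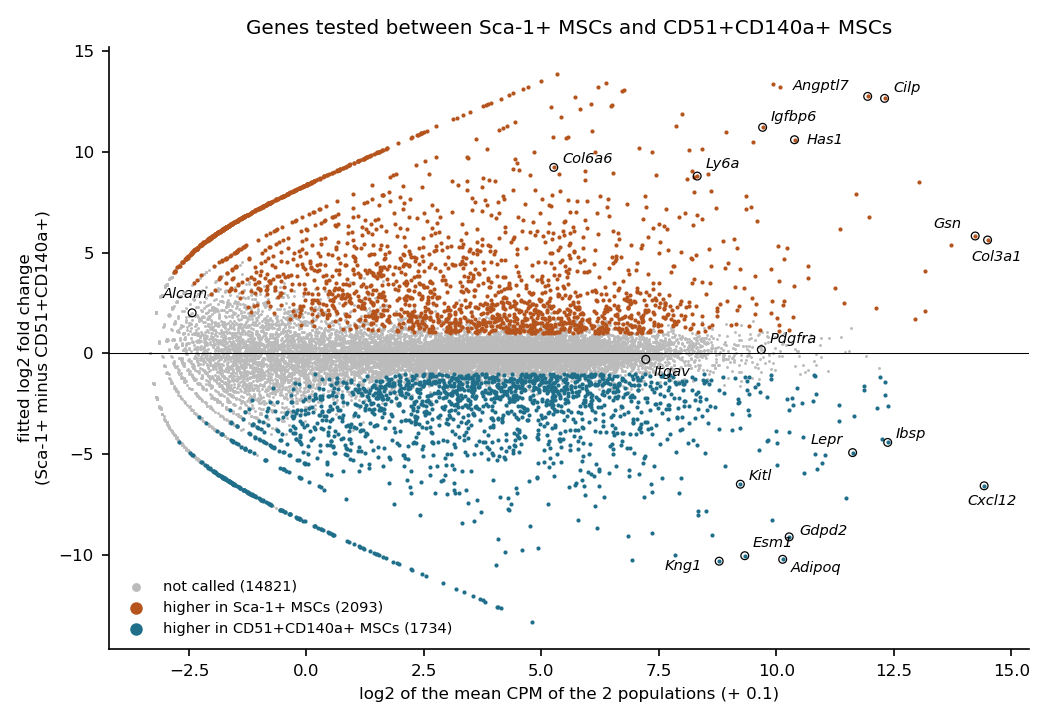
Fitted log2 fold change (Sca-1+ minus CD51+CD140a+) plotted against the log2 mean CPM of the populations for the 18648 genes tested, with called genes in colour and circled genes named in the text. Cxcl12, Lepr and Adipoq lie far below 0 at high levels, Cilp, Angptl7 and Ly6a far above it, and Pdgfra and Itgav lie near 0.

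Besides Ly6a, 3 genes had been named as markers of this contrast, and all were called. As the comparison was chosen with earlier results of these data known, their calls are no independent test. Col6a6 (chr9:105687809-105828160, minus strand), an alpha chain of the beaded-filament collagen VI, stood at 79.2, 106 and 44.3 against 0.0273, 0.0287 and 0.322 CPM (9.24 ± 0.98, edgeR adjusted p = 4.5e-05, or 11.15 without CD51+CD140a+ replicate 3). Cxcl12 (chr6:117168535-117181367, plus strand) was the gene with the most counts in CD51+CD140a+ MSCs, at 502, 435 and 435 against 44820.5, 34986 and 50664 CPM (-6.57 ± 0.49, edgeR adjusted p = 3.6e-06). Lepr (chr4:101717404-101815352, plus strand) stood at 182, 208 and 214 against 5727, 5869.6 and 6739 CPM (-4.92 ± 0.71, edgeR adjusted p = 0.00039). The libraries of the populations did not overlap for any of the 4 markers, and an exact two-sided permutation test of 3 log2 CPM values against 3 gave p = 0.1 for each, the smallest p that 3 against 3 allows. Cxcl12 and Lepr were not absent from Sca-1+ MSCs: their lowest Sca-1+ library still held 435 and 182 CPM.

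Next, the genes with the most counts among those that differed strongly were examined. In Sca-1+ MSCs these included genes of the extracellular matrix. Col3a1, the chain of the fibrillar collagen III, stood at 44461, 50189 and 41326 against 1013, 716 and 1007 CPM (5.64 ± 1.03, edgeR adjusted p = 0.0021). Gsn, which encodes the actin-severing protein gelsolin, stood at 44807, 38057 and 30679.6 against 475, 715 and 799.6 CPM (5.83 ± 0.40, edgeR adjusted p = 2.2e-06). Dcn, the proteoglycan decorin, was at 25078, 23946 and 30504 against 598, 738 and 567 CPM (5.39 ± 0.75, edgeR adjusted p = 0.0003). Per length, Gsn averaged 44703 TPM, Col3a1 17182 TPM and Dcn 16863 TPM in Sca-1+ MSCs, against 836, 375 and 436 TPM in CD51+CD140a+ MSCs. Fn1, which encodes fibronectin, was at 16463, 20730.4 and 12742 against 68, 40.6 and 27.7 CPM (8.52 ± 1.25, edgeR adjusted p = 0.00046). Ccdc80, a secreted matrix protein, stood at 3229, 2986 and 3171 against 116, 166 and 185 CPM (4.33 ± 0.35, edgeR adjusted p = 6.1e-06).

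Among genes with over 3 counts in each of the 6 libraries, the largest fold changes in the same direction were in secreted proteins and a matrix enzyme that CD51+CD140a+ MSCs hardly expressed. Angptl7, an angiopoietin-like secreted protein, stood at 4950.5, 4395 and 14300.3 against 0.164, 0.315 and 2.93 CPM (12.77 ± 1.27, edgeR adjusted p = 2.8e-05, or 12.01 without Sca-1+ replicate 3, and 14.98 without CD51+CD140a+ replicate 3), with Sca-1+ replicate 3 the highest library. Cilp, a cartilage intermediate layer protein, stood at 9445, 10604 and 10300.0 against 0.301, 1.72 and 2.64 CPM (12.67 ± 1.27, edgeR adjusted p = 3e-05, or 13.29 without CD51+CD140a+ replicate 3). The insulin-like growth factor binding protein gene Igfbp6 was at 1651, 1643 and 1723 against 0.464, 1.09 and 0.515 CPM (11.23 ± 0.83, edgeR adjusted p = 3.4e-06). Has1, a hyaluronan synthase, stood at 2861, 3056 and 2114 against 2.1, 1.29 and 1.71 CPM (10.62 ± 0.49, edgeR adjusted p = 3.4e-07). All 3 CD51+CD140a+ libraries were below 3 CPM for each of these genes. Mfap5, a protein of elastic microfibrils, ranked next, with a log2 fold change of 8.93 ± 0.71, edgeR adjusted p = 5e-06.

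Ecm1, the gene of extracellular matrix protein 1, completed the group of abundant genes at 4595, 4385 and 4289 against 363, 533 and 498 CPM (3.25 ± 0.27, edgeR adjusted p = 6.3e-06). Its promoter is printed because it holds a match to TGANTCA, the letters bound by AP-1 factors such as Fos and Jun. The 250 bases before its start on GRCm38.p6 (chr3:95739570-95739819, minus strand, RefSeq) read as follows, with the match in capitals, 64 bases before the start.
Ecm1: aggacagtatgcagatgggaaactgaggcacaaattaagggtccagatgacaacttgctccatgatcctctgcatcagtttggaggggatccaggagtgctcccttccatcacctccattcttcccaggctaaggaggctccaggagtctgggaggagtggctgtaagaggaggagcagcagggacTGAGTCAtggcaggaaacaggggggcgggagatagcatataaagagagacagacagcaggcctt
TGANTCA, which reads alike on both strands, was present in the same window of 7.82% of 27025 RefSeq genes, tested here or not. It was present in 10.8% of the 1434 genes higher in Sca-1+ MSCs that had a promoter entry, in 6.17% of the 1167 genes higher in CD51+CD140a+ MSCs and in 5.37% of the 10030 genes not called. Promoters were matched for 12631 of the genes tested. A match is a description of the letters and does not show that a factor was bound there.

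In CD51+CD140a+ MSCs, the genes with the most counts among those that differed strongly included Cxcl12, described above. Ibsp, which encodes bone sialoprotein, stood at 380.5, 438 and 602 against 6819, 16048 and 7486 CPM (-4.42 ± 0.45, edgeR adjusted p = 3.5e-05), and CD51+CD140a+ replicate 2 was the highest library. Tnc, the matrix glycoprotein tenascin C, was at 376, 560.2 and 508 against 8981, 8824 and 9906 CPM (-4.26 ± 1.13, edgeR adjusted p = 0.021). Hp, which encodes the haemoglobin-binding protein haptoglobin, stood at 56.4, 19.2 and 41 against 5051, 6309.8 and 5772 CPM (-7.20 ± 0.64, edgeR adjusted p = 1.1e-05). Gas6, a ligand of the TAM receptor kinases, was at 716, 689 and 611 against 5606, 5468 and 6349 CPM (-3.11 ± 0.32, edgeR adjusted p = 3.5e-05). S1pr3, a receptor for sphingosine 1-phosphate, was at 45.2, 59.7 and 44.5 against 2454, 3479 and 3122 CPM (-5.92 ± 0.53, edgeR adjusted p = 1.2e-05). H2-Q10, a class I histocompatibility gene, was among the largest changes, at 0.387, 0.203 and 0.656 against 195, 262 and 225 CPM (-9.07 ± 0.62, edgeR adjusted p = 2.4e-06); 81.0% of its 50-base words were unique among annotated transcripts, so a part of its reads could belong to related genes.

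Nearly all genes known from leptin receptor-positive marrow stroma were higher in CD51+CD140a+ MSCs. Of 20 such genes, 19 (95%) were called higher in CD51+CD140a+ MSCs and none higher in Sca-1+ MSCs, with a median log2 fold change of -5.53. This list was chosen with earlier results of these data known. Members such as Kng1, Adipoq, Esm1 and Gdpd2 are also among the largest changes of the comparison. Its share is therefore a description and not an independent test. The 3 libraries of CD51+CD140a+ MSCs lay above those of Sca-1+ MSCs for all 20. The exception among the calls was Zfp423, a transcription factor of adipose precursors, at 70.5, 71.3 and 49.4 against 79.9, 89.4 and 94.6 CPM (-0.46 ± 0.65, edgeR adjusted p = 0.74). Igfbp5 and Ebf1 sat close to the threshold. Igfbp5 (1730.4, 1932 and 1783 against 5932, 4090.1 and 6858 CPM; -1.63 ± 0.62) held its call in 7 of 16 alternatives of the processing, and Ebf1 (216, 252 and 226 against 412, 500.1 and 512 CPM; -1.04 ± 0.34) in 10 of 16 alternatives. Depending on the alternative, 17 to 19 of the 20 were called.

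The largest differences of this list were in Kng1, Adipoq and Esm1, and several members encode secreted proteins with roles in blood pressure and metabolism. Kng1, which encodes the bradykinin precursor kininogen, stood at 0.941, 0.61 and 0.515 against 731, 999.6 and 911 CPM (-10.32 ± 0.47, edgeR adjusted p = 3.4e-07). Adipoq, which encodes the hormone adiponectin, was at 2.38, 2.8 and 0.469 against 2081, 2311 and 2351 CPM (-10.22 ± 0.84, edgeR adjusted p = 6.3e-06). Agt, the precursor of angiotensin, was at 5.26, 4.99 and 8.25 against 1789, 1604 and 2313 CPM (-8.27 ± 0.39, edgeR adjusted p = 3.4e-07). Esm1, a secreted proteoglycan also called endocan, stood at 1.22, 1.63 and 0.797 against 1263, 1145 and 1446 CPM (-10.04 ± 0.54, edgeR adjusted p = 7e-07). In CD51+CD140a+ MSCs, Hp (14242 TPM), Apoe (7583 TPM) and Adipoq (6528 TPM) had the highest levels per length of the list, above Lepr itself (3479.5 TPM). In Sca-1+ MSCs, Igfbp5 (1124 TPM) led the list and Adipoq averaged 5.11 TPM.

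Transcription factors of this stroma were among the members. Pparg, the nuclear receptor that drives fat cell formation, stood at 5.09, 4.53 and 1.97 against 191, 165 and 206 CPM (-5.60 ± 0.63, edgeR adjusted p = 6.7e-05). Cebpa, its partner in that programme, was at 1.72, 1.58 and 1.12 against 46.9, 42.6 and 43.2 CPM (-4.91 ± 0.69, edgeR adjusted p = 0.00034). Ebf3 was at 1.49, 2.19 and 1.36 against 61, 62.5 and 98.5 CPM (-5.46 ± 0.68, edgeR adjusted p = 0.00014). Foxc1, a forkhead factor required for the marrow niche, was at 38.5, 46.9 and 41.8 against 218, 204 and 255 CPM (-2.41 ± 0.46, edgeR adjusted p = 0.0027). The lipid genes Lpl, which encodes lipoprotein lipase, and Apoe, which encodes apolipoprotein E, had log2 fold changes of -5.76 ± 0.41 and -5.04 ± 0.48. The bone morphogenetic protein (BMP) antagonists Chrdl1 and Grem1 had log2 fold changes of -4.98 ± 0.42 and -6.57 ± 0.86, and Igfbp4 one of -3.37 ± 0.35. No library of the populations overlapped for these genes.

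Gdpd2, a membrane glycerophosphodiesterase gene, stood at 6.14, 3.31 and 3.98 against 2085, 2737 and 2591 CPM (-9.11 ± 0.52, edgeR adjusted p = 9.3e-07). Kng2, the neighbouring kininogen gene of Kng1, was at 2.93, 2.34 and 3.19 against 599, 662 and 659 CPM (-7.82 ± 0.71, edgeR adjusted p = 1.3e-05). Annotated exons on the opposite strand cover 17.3% of the exons of Gdpd2, and without strand information reads from both strands were counted alike. Kng1 and Kng2 share sequence: 82.8% and 80.6% of their 50-base words were unique, so their separate values are uncertain. The promoters of Gdpd2 and Kng2 are shown because, among the 16 members with a promoter entry, they belong to the 4 that hold TTGCNNAA, the letters read by C/EBP factors, together with Pparg and Zfp423. The same letters were in 3 of 15 promoters of the adventitial fibroblast list described below (Ackr3, Dpt and Efemp1). The windows are the 250 bases before the start on GRCm38.p6 from RefSeq (chrX:100729597-100729846, plus strand, and chr16:23029102-23029351, minus strand), with matches on either strand in capitals.
Gdpd2: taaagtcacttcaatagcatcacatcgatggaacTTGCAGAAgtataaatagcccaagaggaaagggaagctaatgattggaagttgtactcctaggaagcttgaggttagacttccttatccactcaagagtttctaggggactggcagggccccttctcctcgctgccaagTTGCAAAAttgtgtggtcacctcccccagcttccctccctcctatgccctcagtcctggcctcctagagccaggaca
Kng2: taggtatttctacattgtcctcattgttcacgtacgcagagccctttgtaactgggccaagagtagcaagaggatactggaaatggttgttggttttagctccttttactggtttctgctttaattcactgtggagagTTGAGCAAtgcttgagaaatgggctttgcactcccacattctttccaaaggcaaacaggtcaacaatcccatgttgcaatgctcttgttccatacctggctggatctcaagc
The matches lie 216 and 77 bases before the start of Gdpd2 and 112 bases before that of Kng2. TTGCNNAA was found in 10.8% of all 27025 promoters. It was in 10.7% of those of genes higher in Sca-1+ MSCs, in 10.3% of those of genes higher in CD51+CD140a+ MSCs and in 9.02% of those of genes not called. The inverted repeat bound by EBF factors was found in 0.914% of all promoters, in 1.74% and 1.71% of those of the called genes in the same order, and in 0 of the 16 members. The 3 motifs were searched separately, and matches of different motifs that overlap were not removed.

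Factors by which stromal cells act on blood-forming cells were counted next. Of 21 such factors, 11 (52.4%) were higher in CD51+CD140a+ MSCs and 2 (9.52%) were higher in Sca-1+ MSCs, with a median log2 fold change of -2.23. Besides Cxcl12, the largest difference was in Kitl, which encodes stem cell factor and stood at 13.6, 11.8 and 14.3 against 1207, 1291 and 1076 CPM (-6.49 ± 0.43, edgeR adjusted p = 2.2e-06). Il7, the growth factor of early B cells, stood at 4.65, 3.51 and 4.59 against 264, 268 and 266 CPM (-5.97 ± 0.53, edgeR adjusted p = 1.2e-05). Vcam1, an adhesion molecule for blood cells, was at 93.8, 121 and 61.3 against 4258, 3199 and 4384 CPM (-5.42 ± 0.38, edgeR adjusted p = 2.5e-06). The populations did not overlap for any of these.

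Ligands of receptors on haematopoietic cells followed at smaller differences. Il34 and Csf1 encode the ligands of the macrophage receptor Csf1r. Il34 stood at 13.6, 15 and 17.9 against 301, 394 and 361 CPM (-4.51 ± 0.31, edgeR adjusted p = 2.4e-06). Csf1 stood at 419, 562 and 384 against 1818, 2830.0 and 1769 CPM (-2.23 ± 0.58, edgeR adjusted p = 0.018). Angpt1, the ligand of the receptor Tie2, was at 28, 28.6 and 26.2 against 334, 293 and 331 CPM (-3.53 ± 0.53, edgeR adjusted p = 0.00051), and annotated exons on the other strand cover 14.2% of its exons. The morphogens Bmp6 and Bmp4 had log2 fold changes of -4.93 ± 0.68 and -2.23 ± 0.47, and Slit2, a guidance factor, one of -4.44 ± 0.83, whose call held in 15 of 15 alternatives. Of the 2 factors that were higher in Sca-1+ MSCs, Ptn, which encodes the heparin-binding factor pleiotrophin, stood at 76.7, 57.6 and 82.6 against 8.99, 12.7 and 6.41 CPM (2.95 ± 0.53, edgeR adjusted p = 0.0018). Thpo, which encodes thrombopoietin, was the other, at 2.27, 3.41 and 3.61 against 0.492, 0.545 and 0.58 CPM (2.51 ± 0.59, edgeR adjusted p = 0.01).

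The other 8 factors were not called. Spp1, which encodes osteopontin, was high in all 6 libraries, at 2767, 2242 and 3653 against 2154, 3502 and 2653 CPM (0.06 ± 0.49, edgeR adjusted p = 0.98) with overlapping libraries. Igf1 stood at 523, 497 and 686 against 318, 287 and 311 CPM (0.90 ± 0.36, edgeR adjusted p = 0.11), with each Sca-1+ library above each CD51+CD140a+ library. Jag1, a Notch ligand, stood at 69.7, 80.6 and 61.6 against 96.1, 93.5 and 62.9 CPM. Tgfb1, which encodes transforming growth factor beta 1, was at 23.3, 25.4 and 19 against 22.5, 18.1 and 21.1 CPM. Il6, Lif, Flt3l and Wnt5a had log2 fold changes between -0.90 and 1.03, with overlapping libraries.

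**Figure D2:**
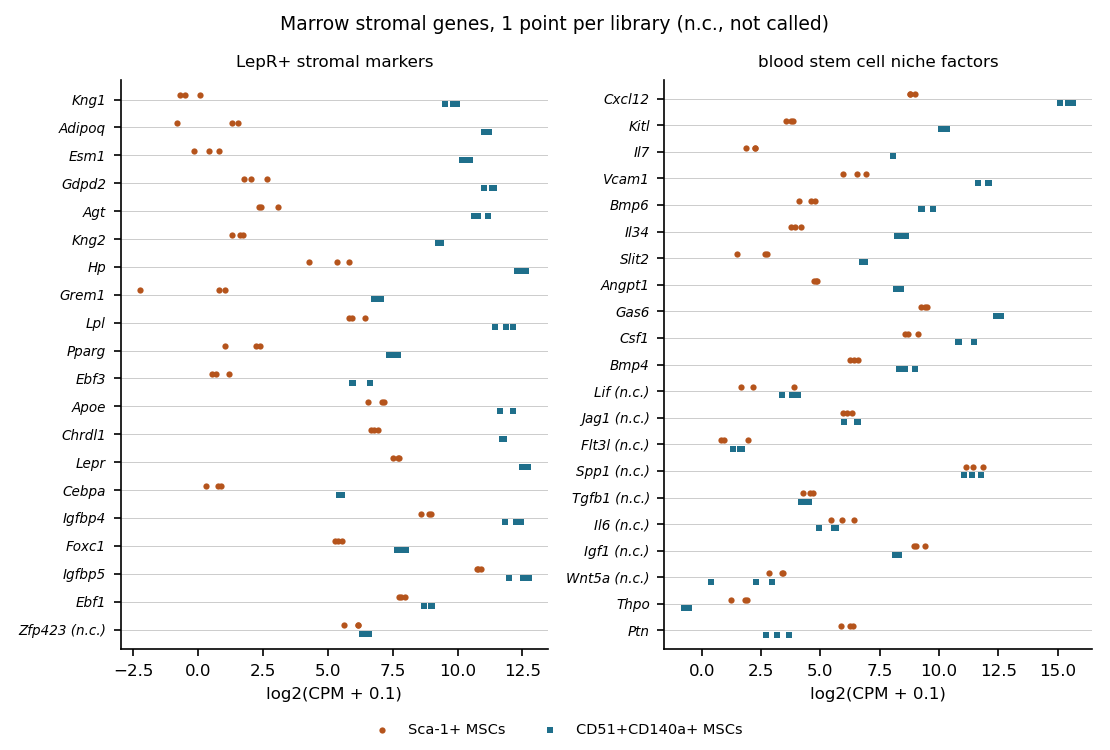
Level of each tested member of the leptin receptor-positive stroma and niche factor lists, as log2(CPM + 0.1), with 1 point per library, circles for Sca-1+ MSCs and squares for CD51+CD140a+ MSCs. The squares lie to the right of the circles for all 20 stromal genes, whereas among the niche factors Ptn and Thpo lie the other way and 8 were not called (n.c.).

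Sca-1+ MSCs were then examined for genes of adventitial fibroblasts, the cells of the connective tissue sheath around vessels. Of 25 such genes, 21 (84%) were higher in Sca-1+ MSCs and 1 (4%) was higher in CD51+CD140a+ MSCs, with a median log2 fold change of 7.54. With genes at the detection limit set to their bound, the median was 7.15. Gsn, Dcn, Igfbp6, Has1 and Mfap5, given above, are members. As this list was also chosen with earlier results of these data known, its share is no independent test. The Sca-1+ libraries lay above the others for 24 of the 25. The exception was Pla1a, a phospholipase, at 11.9, 8.95 and 6.79 against 48.9, 35.2 and 50.4 CPM (-2.28 ± 0.70, edgeR adjusted p = 0.043), whose call held in 12 of 16 alternatives.

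Markers of the Pi16-positive and Dpp4-positive fibroblasts known from many tissues were among the clearest. Dpp4, the membrane peptidase CD26, stood at 211, 168 and 166 against 2.32, 4.3 and 1.29 CPM (6.10 ± 0.72, edgeR adjusted p = 9.4e-05). Cd34, a sialomucin of progenitor cells, was at 1444, 1286 and 1182 against 8.03, 14.6 and 4.83 CPM (7.15 ± 0.45, edgeR adjusted p = 1.4e-06). Pi16, a peptidase inhibitor, was at 201, 126 and 77.8 CPM in Sca-1+ MSCs, and its ratio to CD51+CD140a+ MSCs, from 7766 against 6 counts, was 2246-fold, 95% exact interval 1032 to 6123. This interval and the similar ones below cover counting error only. Dpt, which encodes dermatopontin, was at 152, 140.2 and 106 CPM against 2 counts over the 3 CD51+CD140a+ libraries, a ratio of 6732-fold, 95% exact interval 1863 to 55601. Clec3b, which encodes tetranectin, was at 78.5, 109 and 69.3 CPM against 2 counts, a ratio of 4365-fold, 95% exact interval 1208 to 36053.

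Genes of matrix and of guidance cues in the same list showed differences of a similar size. Tnxb, which encodes tenascin X, was at 218, 311 and 116 CPM against 2 counts (10876-fold, 95% exact interval 3010.2 to 89817). The collagen Col14a1 stood at 796, 962 and 584 against 4.26, 1.23 and 3.22 CPM (8.07 ± 1.07, edgeR adjusted p = 0.00021). Col15a1, another, was at 124, 155 and 143 against 0.109, 0 and 0.29 CPM (10.03 ± 1.00, edgeR adjusted p = 2.9e-05, or 11.17 without CD51+CD140a+ replicate 3). Sema3c, a secreted semaphorin, was at 684, 671 and 687 against 1.26, 0 and 0.515 CPM (10.15 ± 1.29, edgeR adjusted p = 0.00016, or 11.37 without CD51+CD140a+ replicate 1). Ackr3, a scavenging receptor for CXCL12, stood at 642, 621 and 547 against 1.5, 2.12 and 0.515 CPM (8.76 ± 0.59, edgeR adjusted p = 2.2e-06), the reverse of the order seen for Cxcl12 itself. Ugdh, which supplies a precursor of hyaluronan, averaged 1407 ± 127 CPM in Sca-1+ and 97.7 ± 2 CPM in CD51+CD140a+ MSCs (mean ± SD, n = 3; log2 fold change 3.85 ± 0.31), the same direction as Has1.

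Members with smaller differences were Anxa3 (3.03 ± 0.49), Penk, the enkephalin precursor (3.82 ± 0.45, with 14.3% of its exons overlapped by the other strand), and Cd248, which encodes endosialin (4.73 ± 0.62). Thy1, a classical fibroblast antigen, was low in Sca-1+ MSCs at 4.26, 5.09 and 4.64 CPM, against 2 counts in CD51+CD140a+ MSCs, a ratio of 239.5-fold, 95% exact interval 65.7 to 1988. Efemp1, Fbn1 and Smpd3 were not called. Fbn1, which encodes the microfibril protein fibrillin 1, stood at 2462, 2666 and 1636 against 1392, 1154 and 989 CPM (0.94 ± 0.72, edgeR adjusted p = 0.47), with each Sca-1+ library above each CD51+CD140a+ library and 20.1% of its exons overlapped by the other strand.

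The Ly6 family, to which Sca-1 belongs, consists of small surface proteins that are mostly anchored by a lipid. Of 16 members tested, 9 (56.2%) were higher in Sca-1+ MSCs and 0 were higher in CD51+CD140a+ MSCs, and Ly6a was part of the sort. Ly6c1 stood at 524, 506 and 494 against 0.191, 0 and 0.193 CPM (11.90 ± 1.01, edgeR adjusted p = 7.7e-06); 67.2% of its 50-base words were unique and it shares the rest chiefly with Ly6c2, so its value is uncertain. Ly6c2, whose product is known from monocytes, stood at 23.8, 14.9 and 17.4 against 24.3, 18.9 and 11 CPM (0.05 ± 0.63, edgeR adjusted p = 0.99), with overlapping libraries. Slurp1, a secreted member, was at 32.5, 39.7 and 57.8 CPM in Sca-1+ MSCs, against 1 count over the CD51+CD140a+ libraries (4514-fold, 95% exact interval 809.5 to 178371). Lynx1, a modulator of acetylcholine receptors, was at 32.7, 35.6 and 26.3 against 2.13, 4.59 and 4.19 CPM (3.11 ± 0.53, edgeR adjusted p = 0.0013). Ly6e was high in both populations and was not called, at 230.4, 189 and 211 against 154, 151 and 161 CPM (0.44 ± 0.41, edgeR adjusted p = 0.57). The median of the list was 4.50, or 2.72 with genes at the detection limit set to their bound.

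Surface proteins in common use to define MSCs divided between the populations. Of 19 tested, 7 (36.8%) were higher in Sca-1+ MSCs and 3 (15.8%) were higher in CD51+CD140a+ MSCs, with a median of 0.80. The tetraspanin Cd9 stood at 1517, 1483 and 1959 against 266, 287 and 250.4 CPM (2.63 ± 0.44, edgeR adjusted p = 0.0013). The ectonucleotidase Nt5e (CD73) was at 304, 370.2 and 387 against 85.3, 88.5 and 106 CPM (1.92 ± 0.38, edgeR adjusted p = 0.0033). The hyaluronan receptor Cd44 was at 183, 274 and 172 against 45.4, 14.3 and 23.5 CPM (2.92 ± 0.47, edgeR adjusted p = 0.0009). Higher in CD51+CD140a+ MSCs were Vcam1, Mme, the endopeptidase CD10 (67.9, 59.6 and 57.4 against 681, 634 and 744 CPM; -3.48 ± 0.60, edgeR adjusted p = 0.0014), and Pdgfrb, a receptor of platelet-derived growth factor (326, 343 and 253 against 2066, 1672 and 2703 CPM; -2.80 ± 1.06, edgeR adjusted p = 0.098). The Pdgfrb libraries did not overlap, but its SE was large and its call held in 8 of 16 alternatives. Eng (CD105) and Itgb1 (CD29) were not called, with log2 fold changes of -0.63 ± 0.71 and -0.11 ± 0.36. The nerve growth factor receptor gene Ngfr held no more than 3 counts in any of the 6 libraries, and Nes, which encodes nestin, was at most 2.05 CPM.

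The skeletal lineages of cartilage, tendon and bone were compared next. Tendon genes were higher in Sca-1+ MSCs in 9 of 12 cases (75%) and in none were higher in CD51+CD140a+ MSCs, with a median of 9.30, or 7.39 with genes at the detection limit set to their bound. Over the alternatives this median ranged from 7.30 to 11.13. Scx, which encodes the tendon transcription factor scleraxis, was at 24, 32.2 and 45.4 CPM in Sca-1+ MSCs against 1 count over the CD51+CD140a+ libraries (3530.2-fold, 95% exact interval 633 to 139502). Tnmd, which encodes the tendon membrane protein tenomodulin, was at 73.9, 75.8 and 125 CPM against 5 counts (1910.2-fold, 95% exact interval 818 to 5885). Kera, the proteoglycan keratocan, was at 148, 186 and 298 CPM against 2 counts (11024-fold, 95% exact interval 3051 to 91042). The Sca-1+ libraries did not overlap with the others for any of the 3.

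Matrix proteins of tendon were abundant in Sca-1+ MSCs. Thbs4, which encodes thrombospondin 4, stood at 1762, 2314 and 2451 against 0.0273, 0.229 and 0.419 CPM (13.23 ± 0.99, edgeR adjusted p = 3.6e-06, or 14.002 without CD51+CD140a+ replicate 3). Cilp2, a relative of Cilp, was at 1802, 1969 and 2102 against 0.082, 0.0573 and 0.419 CPM (13.36 ± 1.44, edgeR adjusted p = 4.9e-05, or 14.66 without CD51+CD140a+ replicate 3). Fmod, which encodes fibromodulin, was at 4222, 5013 and 6376 against 67.7, 59.7 and 86.5 CPM (6.19 ± 0.42, edgeR adjusted p = 2.2e-06). Thbs2 had a log2 fold change of 2.00 ± 0.69 and held its call in 8 of 16 alternatives. Ptx4, a pentraxin, was at 2.82, 7.83 and 7.17 CPM against 2 counts (311-fold, 95% exact interval 85.4 to 2575). Mkx, a homeobox factor of tendon, was not called, at 36, 35.4 and 55.4 against 37, 23.4 and 25.8 CPM (0.56 ± 0.41, edgeR adjusted p = 0.44). Egr2 and Col12a1 were not called either.

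Cartilage genes were higher in Sca-1+ MSCs in 9 of 18 cases (50%) and in none were higher in CD51+CD140a+ MSCs, with a median of 1.04. Comp, which encodes cartilage oligomeric matrix protein and is also a tendon gene, stood at 7655, 8527 and 7773 against 38.4, 36.7 and 147 CPM (6.75 ± 0.62, edgeR adjusted p = 1.4e-05, or 7.73 without CD51+CD140a+ replicate 3). Chad, which encodes the cell-binding matrix protein chondroadherin, was at 5556, 6369 and 7848 against 17.6, 4.53 and 60.1 CPM (7.91 ± 0.86, edgeR adjusted p = 5.4e-05, or 9.22 without CD51+CD140a+ replicate 3). Prg4, which encodes the joint lubricant lubricin, was at 739.7, 1367 and 1135 against 16.7, 22.9 and 23.9 CPM (5.67 ± 0.41, edgeR adjusted p = 3e-06). Cytl1, a secreted protein of chondrocytes, stood at 350.1, 535 and 507 against 0.219, 0.0287 and 0.29 CPM (11.31 ± 1.18, edgeR adjusted p = 3.8e-05). The transcription factors Sox5 and Sox6 had log2 fold changes of 3.78 ± 0.46 and 2.50 ± 0.33, and Acan, which encodes the proteoglycan aggrecan, one of 2.36 ± 0.65. Sox9 (1.50 ± 0.43) held its call in 15 of 16 alternatives and Hapln1 (1.18 ± 0.41) in 11 of 16 alternatives.

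Genes of the cartilage collagens II and IX were not called. Col2a1, the chain of cartilage collagen II, stood at 1248, 973 and 1240.2 against 455, 395 and 1089 CPM (0.84 ± 0.86, edgeR adjusted p = 0.62), with CD51+CD140a+ replicate 3 inside the Sca-1+ range. Col9a1, Col9a2, Col9a3, Col11a2, Matn1, Matn3, Cnmd and Snorc were also not called, with log2 fold changes of -0.999 to 0.90 and overlapping libraries. In the Itga8+ MSC libraries of the series, Col2a1 averaged 57762 CPM, which was not tested against the 6 libraries compared here.

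Osteoblast genes lay in the other direction. Of 19 tested, 15 (78.9%) were higher in CD51+CD140a+ MSCs and 2 (10.5%) were higher in Sca-1+ MSCs, with a median of -3.09, or -2.41 with genes at the detection limit set to their bound. Runx2, the transcription factor needed for bone formation, stood at 2.16, 3.56 and 1.69 against 81.6, 60.1 and 91.7 CPM (-4.98 ± 0.47, edgeR adjusted p = 1.9e-05). Sp7, which encodes osterix and acts after it, was at 1.94, 1.63 and 1.97 against 33.9, 32.4 and 41.9 CPM (-4.28 ± 0.47, edgeR adjusted p = 5.4e-05). Tnfsf11, which encodes the osteoclast-inducing ligand RANKL, was at 2.88, 3 and 3.42 against 156, 107 and 156 CPM (-5.49 ± 0.44, edgeR adjusted p = 5.7e-06). Its decoy receptor Tnfrsf11b, osteoprotegerin, was among the 2 exceptions, at 312, 442 and 449 against 6.53, 3.67 and 6.09 CPM (6.21 ± 0.37, edgeR adjusted p = 1.2e-06). The ligand and its decoy thus differed in opposite directions, without overlap of the libraries.

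The other exception was Col1a1, the main collagen of bone and of fibrous tissue, at 15135, 18954 and 17694 against 899.7, 998 and 1121 CPM (4.10 ± 0.98, edgeR adjusted p = 0.012). Cdh11, a cadherin of osteoblasts, was at 44.9, 66.6 and 50.7 against 1496, 1308 and 1768 CPM (-4.82 ± 0.57, edgeR adjusted p = 9.1e-05). Alpl, the bone alkaline phosphatase, stood at 69.1, 66.6 and 105 against 322, 209.9 and 265 CPM (-1.73 ± 0.39, edgeR adjusted p = 0.0089). Pth1r, the parathyroid hormone receptor, was at 84.9, 67 and 77.9 against 181, 244 and 225 CPM (-1.50 ± 0.36, edgeR adjusted p = 0.012). Bglap, which encodes osteocalcin, was at most 8.28 CPM in any of the 6 libraries, and it shares most of its sequence with Bglap2 (43.4% of its words were unique). Dmp1, a gene of osteocytes, stood at 0.387, 0.153 and 0.375 against 6.15, 9.32 and 6.51 CPM (-4.56 ± 0.67, edgeR adjusted p = 0.00047). The calls of Bglap, Mepe and Ifitm5 were lost in some alternatives, and 12 to 17 of the 19 genes were called higher in CD51+CD140a+ MSCs over the alternatives.

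**Figure D3:**
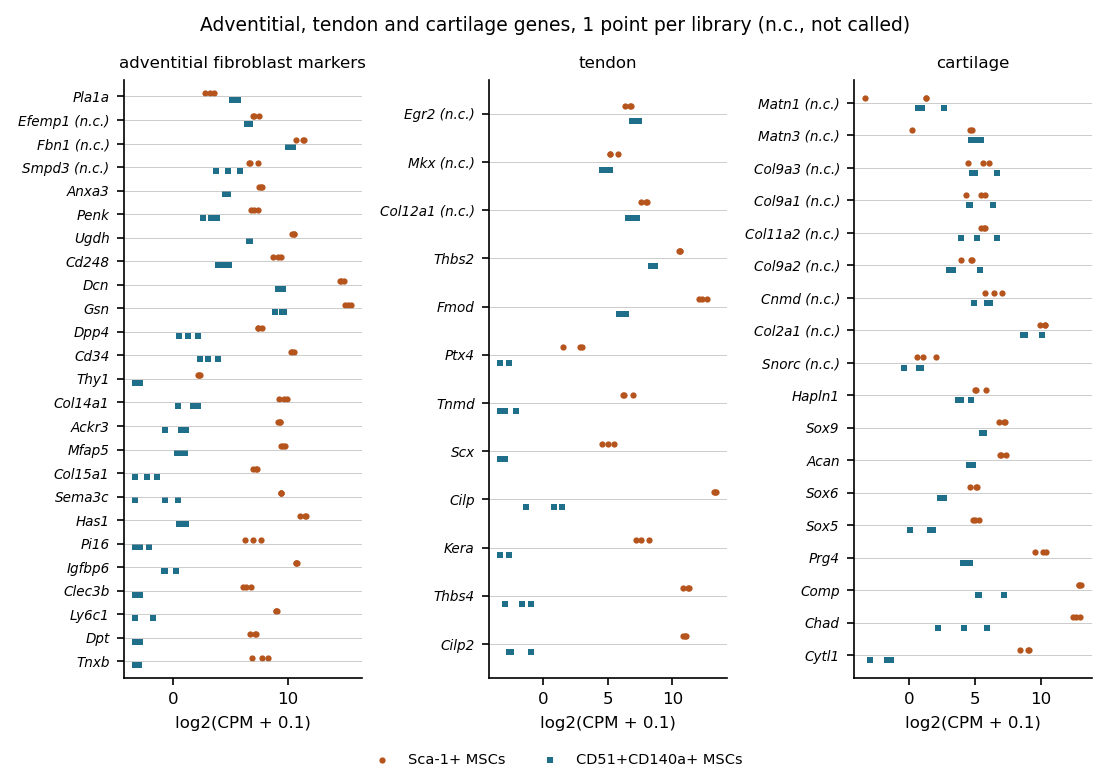
Level of each tested member of the adventitial fibroblast, tendon and cartilage lists, as log2(CPM + 0.1), with 1 point per library, circles for Sca-1+ MSCs and squares for CD51+CD140a+ MSCs. The circles lie far to the right for most adventitial and tendon genes, and the populations overlap for Col2a1, the Col9 genes and the matrilins at the top of the cartilage panel.

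The matrix as a whole was divided by gene family. Of 44 collagen genes, 15 (34.1%) were higher in Sca-1+ MSCs and 3 (6.82%) were higher in CD51+CD140a+ MSCs, with a median of 1.13, or 1.06 with genes at the detection limit set to their bound. Over the alternatives 11 to 19 and 2 to 6 were called, with 2 without CD51+CD140a+ replicate 1. The summed level of the family was 87844 to 102721 CPM in Sca-1+ libraries and 9128 to 15217 CPM in CD51+CD140a+ libraries. Among the fibrillar collagens, Col5a2 stood at 1859, 2284 and 1819 against 318, 228 and 421 CPM (2.62 ± 0.66, edgeR adjusted p = 0.015). Col1a2 stood at 13258, 15647 and 15532 against 3271, 2673 and 4321 CPM (2.11 ± 0.71, edgeR adjusted p = 0.061), and its call held in 9 of 16 alternatives. Of the collagen VI chains, Col6a3 was called at 1042, 1440.5 and 911 against 66.7, 48.8 and 71.9 CPM (4.18 ± 0.71, edgeR adjusted p = 0.0013) and Col6a6 as given above. Col6a1 was not called, at 4089.7, 5036 and 4011 against 1615, 1653 and 2188 CPM (1.27 ± 0.67, edgeR adjusted p = 0.25). Col6a2 and Col5a1, called at 1.82 and 1.98, held in 8 and 9 of 16 alternatives.

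The 3 collagens that were higher in CD51+CD140a+ MSCs were rare in both populations: Col23a1, Col6a4 and Col26a1 reached at most 11.1 CPM in any library, and Col23a1 held its call in 15 of 16 alternatives. Col8a2, a collagen of basement membranes of the eye and vessels, was higher in Sca-1+ MSCs at 268, 254 and 287 against 2.62, 2.24 and 16.3 CPM (5.26 ± 1.22, edgeR adjusted p = 0.01, or 6.79 without CD51+CD140a+ replicate 3). The main basement membrane chains Col4a1 and Col4a2 were not called, at -1.29 and -1.22, while Col4a5 was, at 101, 103 and 45.7 against 0, 0.373 and 0.548 CPM (8.08 ± 1.26, edgeR adjusted p = 0.00069, or 7.49 without CD51+CD140a+ replicate 1, and 8.78 without CD51+CD140a+ replicate 3).

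Small leucine-rich proteoglycans, which bind and space collagen fibrils, were higher in Sca-1+ MSCs in 10 of 16 cases (62.5%), and 1 (6.25%), Optc, was higher in CD51+CD140a+ MSCs at no more than 2.38 CPM, with its call held in 12 of 16 alternatives. The median was 2.96, or 2.48 with genes at the detection limit set to their bound. Besides Dcn, Fmod, Chad and Kera, Prelp stood at 6381, 7306 and 8419.6 against 1358, 1575 and 1621 CPM (2.28 ± 0.45, edgeR adjusted p = 0.0034). Lum, which encodes lumican, was at 2719, 3007 and 3419 against 233, 238 and 206 CPM (3.76 ± 0.50, edgeR adjusted p = 0.00021). Aspn, which encodes asporin, was at 633, 499.9 and 634 against 13.5, 3.58 and 4.19 CPM (6.37 ± 0.73, edgeR adjusted p = 7.4e-05, or 7.24 without CD51+CD140a+ replicate 1). Bgn, which encodes biglycan, was high without a difference, at 1296, 1577 and 1484 against 1268, 1099.5 and 1588 CPM (0.14 ± 0.28, edgeR adjusted p = 0.83). Ogn, which encodes osteoglycin, was not called either, at 407, 300.4 and 441 against 471, 414 and 506 CPM (-0.28 ± 0.37, edgeR adjusted p = 0.72).

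Elastic fibre and microfibril genes were higher in Sca-1+ MSCs in 9 of 24 cases (37.5%) and higher in CD51+CD140a+ MSCs in 3 (12.5%), with a median of 0.50. Over the alternatives 1 to 5 were higher in CD51+CD140a+ MSCs, with 1 without Sca-1+ replicate 3 or CD51+CD140a+ replicate 2. The call of Fbn2 was lost whichever library was left out. The fibulins divided. Fbln2 stood at 1534, 1653 and 1149.6 against 0.902, 0.086 and 2 CPM (10.51 ± 1.35, edgeR adjusted p = 0.00017, or 11.49 without CD51+CD140a+ replicate 3) and Fbln7 at 524, 582 and 484 against 1.42, 4.62 and 6.64 CPM (6.97 ± 0.53, edgeR adjusted p = 3.6e-06). In contrast, Fbln5, which is needed to assemble elastic fibres, was at 187, 154 and 143 against 2488, 3371 and 2757 CPM (-4.15 ± 0.30, edgeR adjusted p = 3e-06). Fbln1 was not called, at 314, 284 and 265 against 197, 328 and 314 CPM. Eln, which encodes elastin itself, stood at 33.7, 47.9 and 25.5 against 0.71, 2.35 and 1.16 CPM (4.66 ± 0.88, edgeR adjusted p = 0.0027, or 5.25 without CD51+CD140a+ replicate 2). Ltbp4, a protein that binds latent transforming growth factor beta, was at 1422, 1490.3 and 994 against 5.08, 5.47 and 6.8 CPM (7.81 ± 1.23, edgeR adjusted p = 0.00076). Mfap4, a microfibril-associated protein, was at 40.2, 41.7 and 26.8 against 0.273, 0.0573 and 0.129 CPM (7.82 ± 0.57, edgeR adjusted p = 3.3e-06, or 8.54 without CD51+CD140a+ replicate 1).

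Of 23 basement membrane genes, 6 (26.1%) were higher in Sca-1+ MSCs and 2 (8.70%) were higher in CD51+CD140a+ MSCs, with a median of 0.26. Lama1, a laminin chain, held no count in the Sca-1+ libraries and stood at 40, 17.4 and 19.5 CPM in CD51+CD140a+ MSCs, at least 168-fold higher (edgeR adjusted p = 0.0026). Lamb3, another laminin chain, was higher in Sca-1+ MSCs, at 8.52, 13.3 and 7.87 against 0.765, 0 and 0.58 CPM (4.45 ± 1.22, edgeR adjusted p = 0.025, or 5.09 without CD51+CD140a+ replicate 1). Between 5 and 9 genes of this list were called higher in Sca-1+ MSCs, and between 1 and 8 higher in CD51+CD140a+ MSCs, over the alternatives.

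Of 35 matrix proteases and their inhibitors, 10 (28.6%) were higher in Sca-1+ MSCs and 9 (25.7%) were higher in CD51+CD140a+ MSCs, with a median of 0.07. The 9 ranged from 4 to 11 over the alternatives, with 4 and 5 without Sca-1+ replicates 1 and 3. The gelatinase Mmp2 stood at 2239, 2499 and 1931 against 66, 93.8 and 100.1 CPM (4.68 ± 0.42, edgeR adjusted p = 1.2e-05). The protease inhibitor Timp2 was at 4643, 4873 and 4618 against 775, 728 and 1003 CPM (2.50 ± 0.36, edgeR adjusted p = 0.00039). Timp3, of the same family, was at 1724, 1963 and 2194 against 146, 163 and 168 CPM (3.62 ± 0.41, edgeR adjusted p = 6.5e-05), with 21.3% of the Timp3 exons overlapped by the other strand. Mmp3, the protease stromelysin, was at 218, 116 and 108 CPM against 1 count (14817-fold, 95% exact interval 2659 to 585295). Higher in CD51+CD140a+ MSCs were Serpine2, an inhibitor of thrombin and plasminogen activators, at 1903, 1786 and 2129.5 against 6529, 9817 and 8187 CPM (-2.08 ± 0.31, edgeR adjusted p = 0.00048). Mmp23 in the same direction was at 31, 34.4 and 28.3 against 134, 149 and 141 CPM (-2.18 ± 0.44, edgeR adjusted p = 0.0043) and Timp4 at 2.93, 0 and 0 against 99.2, 106 and 79.9 CPM (-6.62 ± 1.29, edgeR adjusted p = 0.0032). All Sca-1+ counts of Timp4 lay in replicate 1, and without it the log2 fold change was -14.12, a fitted value against no count. Mmp14, the membrane-anchored collagenase, did not differ by the test, at 409, 494 and 402 against 373, 486 and 482 CPM (-0.04 ± 0.40, edgeR adjusted p = 0.98).

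The receptors by which cells hold this matrix, the integrins, were tested with 24 subunits, of which 9 (37.5%) were higher in Sca-1+ MSCs and 3 (12.5%) were higher in CD51+CD140a+ MSCs. The median was 1.04. Itgb5, a partner of the alpha V subunit, stood at 721, 760.4 and 649 against 137, 129.9 and 179.9 CPM (2.25 ± 0.40, edgeR adjusted p = 0.0016). Itga5, a subunit of the fibronectin receptor, was at 646, 714 and 578 against 87.5, 75.4 and 91.5 CPM (2.93 ± 0.84, edgeR adjusted p = 0.03), with its call held in 15 of 16 alternatives. Itga6, a laminin receptor subunit, was at 21.7, 36.4 and 35.7 against 3.69, 3.15 and 2.26 CPM (3.36 ± 0.66, edgeR adjusted p = 0.0034). Itga2, a collagen receptor subunit, was at 17.6, 28.7 and 14.8 against 0.109, 0 and 0.87 CPM (5.97 ± 1.08, edgeR adjusted p = 0.002, or 5.38 without CD51+CD140a+ replicate 2, and 8.38 without CD51+CD140a+ replicate 3). Besides Itga8, the collagen receptor subunit Itga1 was higher in CD51+CD140a+ MSCs, at 24.3, 30.7 and 24.7 against 288, 257 and 292 CPM (-3.39 ± 0.50, edgeR adjusted p = 0.00044). Itga3 was higher too, at 3.26, 2.39 and 0.609 against 13.7, 14.1 and 15.6 CPM (-2.79 ± 0.60, edgeR adjusted p = 0.0061). Over the alternatives, 5 (without CD51+CD140a+ replicate 2) to 10 of the 24 were called higher in Sca-1+ MSCs.

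Signals were examined by family, beginning with the insulin-like growth factor (IGF) axis, in which binding proteins hold the growth factors in the extracellular space. Of 15 genes, 9 (60%) were higher in CD51+CD140a+ MSCs and 1 (6.67%), Igfbp6, was higher in Sca-1+ MSCs, with a median of -1.68. Igfbp4 stood at 507, 471 and 381 against 4880.1, 3637 and 5558 CPM (-3.37 ± 0.35, edgeR adjusted p = 3.7e-05) and Igfbp3 at 28.4, 26.6 and 23 against 479, 659.8 and 695 CPM (-4.56 ± 0.54, edgeR adjusted p = 9.7e-05). Pappa, a protease that cleaves Igfbp4 and frees its ligand, was higher in the same direction, at 3.54, 3.56 and 3.7 against 297, 328 and 335 CPM (-6.47 ± 0.78, edgeR adjusted p = 0.0001); it was named here for this role after its value was seen. Igfbp7 was high in both populations and was not called, at 1163, 1462 and 1446 against 886, 948 and 1182 CPM (0.43 ± 0.35, edgeR adjusted p = 0.5). The receptor Igf1r was at 8.52, 10 and 8.57 against 9.48, 8.34 and 10.8 CPM.

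BMP ligands and antagonists were called in both directions, 10 of 25 (40%) higher in Sca-1+ MSCs and 7 (28%) higher in CD51+CD140a+ MSCs. The antagonists differed by name: Chrd, which encodes chordin, stood at 43.5, 41.9 and 45.8 against 2.98, 4.53 and 3.09 CPM (3.63 ± 0.63, edgeR adjusted p = 0.0015) and Twsg1, a chordin cofactor, at 682, 646 and 755 against 162, 159 and 164 CPM (2.10 ± 0.40, edgeR adjusted p = 0.0028). In the other direction, Chrdl1 stood at 102, 122 and 109.6 against 3560.3, 3344 and 3587 CPM and Fst, which encodes follistatin, at 41.9, 52 and 37.5 against 284, 359 and 368 CPM (-2.94 ± 0.35, edgeR adjusted p = 9.3e-05). Inhba, the subunit of activin A that follistatin binds, was at 31.8, 57.6 and 48.9 against 4.18, 5.36 and 4.9 CPM (3.26 ± 0.34, edgeR adjusted p = 3.9e-05). Mstn, which encodes the muscle growth inhibitor myostatin, was at 10.6, 21.4 and 34.5 CPM in Sca-1+ MSCs and held no count in CD51+CD140a+ MSCs, at least 252-fold higher. Among ligands, Bmp6 (24.5, 27.3 and 16.8 against 614, 600.2 and 869.9 CPM) and Bmp4 (75.5, 94.9 and 85.4 against 374, 318 and 508 CPM) were higher in CD51+CD140a+ MSCs and Bmp2 was not called, at 55.2, 73.4 and 55.1 against 56.3, 37.4 and 63.8 CPM. The median of the list was 0.65.

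Secreted inhibitors of Wnt signalling were higher in Sca-1+ MSCs in 6 of 11 cases (54.5%) and higher in CD51+CD140a+ MSCs in 1 (9.09%), with a median of 1.95. Dkk3 stood at 409, 516 and 473 against 110.4, 97.9 and 154 CPM (1.95 ± 0.29, edgeR adjusted p = 0.00049). Dkk2 stood at 79.8, 77.6 and 64.9 against 0.191, 0 and 0.773 CPM (7.85 ± 0.94, edgeR adjusted p = 0.0001, or 7.26 without CD51+CD140a+ replicate 2, and 9.50 without CD51+CD140a+ replicate 3) and Sfrp2 at 48, 66.2 and 47 against 7.79, 8.08 and 10.2 CPM (2.63 ± 0.58, edgeR adjusted p = 0.0072). Frzb, which encodes another frizzled-related protein, was at 22.7, 33 and 24.5 against 2.9, 1.52 and 3.64 CPM (3.31 ± 0.35, edgeR adjusted p = 4.5e-05). Sfrp1 was the member that was higher in CD51+CD140a+ MSCs, at 52.7, 47.3 and 38.6 against 177, 174 and 190.1 CPM (-1.97 ± 0.47, edgeR adjusted p = 0.012). Sfrp4 had the most counts of the family and was not called, at 3066, 3472 and 2723 against 2139, 3351 and 3071 CPM (0.11 ± 0.30, edgeR adjusted p = 0.89).

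Chemokines other than Cxcl12 were called in 10 of 24 cases, 7 (29.2%) higher in CD51+CD140a+ MSCs and 3 (12.5%) higher in Sca-1+ MSCs, with a median of -0.27. Cxcl14 stood at 53.7, 67.8 and 62 against 744, 861 and 852 CPM (-3.74 ± 0.32, edgeR adjusted p = 7.6e-06). Cx3cl1, a membrane-bound chemokine also called fractalkine, was at 23.2, 40.2 and 22.1 against 513, 528 and 666 CPM (-4.32 ± 0.62, edgeR adjusted p = 0.0004). The interferon-induced Cxcl10 was at 8.08, 8.29 and 14.6 against 105, 44.8 and 73.6 CPM (-2.85 ± 0.49, edgeR adjusted p = 0.0013), and Cxcl9, induced likewise, at 0.277, 2.14 and 0 against 39.2, 27.5 and 29.3 CPM (-5.31 ± 1.27, edgeR adjusted p = 0.012, or -7.87 without Sca-1+ replicate 2, and -4.72 without Sca-1+ replicate 3). Ccl11, which encodes the eosinophil attractant eotaxin, was at 27.8, 23.3 and 21.8 CPM in Sca-1+ MSCs against 1 count (2475-fold, 95% exact interval 443 to 97823). Ccl8 was at 5.53, 2.54 and 7.5 CPM against no count, at least 58.9-fold higher. The neutrophil attractant Cxcl2 stood at 6.86, 17.7 and 6.56 against 1.2, 1.63 and 1.61 CPM (2.80 ± 0.61, edgeR adjusted p = 0.007, or 2.18 without Sca-1+ replicate 2). Ccl2, the monocyte attractant, was not called at 146, 321 and 201 against 463, 695 and 481 CPM (-1.30 ± 0.64, edgeR adjusted p = 0.22), although each CD51+CD140a+ library lay above each Sca-1+ library.

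Complement genes were called in 10 of 24 cases in the same split, 7 (29.2%) and 3 (12.5%), with a median of -0.50, or -0.30 with genes at the detection limit set to their bound. Serping1, the inhibitor of the initiating protease C1, stood at 2908, 2795 and 2706 against 6388, 7741 and 7979 CPM (-1.39 ± 0.24, edgeR adjusted p = 0.0013). C6 and C7, neighbours in the membrane attack complex, differed in opposite directions. C6 was at 0.941, 0.763 and 2.81 against 153, 146 and 142 CPM (-6.60 ± 0.69, edgeR adjusted p = 3.8e-05, or -7.43 without Sca-1+ replicate 3). C7 stood at 138, 64.8 and 80.6 CPM in Sca-1+ MSCs against 5 counts in CD51+CD140a+ MSCs, all in replicate 3 (1903-fold, 95% exact interval 815 to 5862). Cd55, which protects cells from complement, was at 363, 344 and 353 against 13.5, 9.03 and 10.3 CPM (5.01 ± 0.37, edgeR adjusted p = 3.6e-06). C2 was higher in CD51+CD140a+ MSCs, at -5.75, with 61.3% of its words unique. C3 and Clu were abundant and not called, at 1358, 1175 and 848 against 594, 369 and 625 CPM and 3006, 3362 and 3787 against 1721, 1985 and 2136 CPM.

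Receptors for nerve and hormone signals were higher in CD51+CD140a+ MSCs in 12 of 25 cases (48%) and higher in Sca-1+ MSCs in 2 (8%), with a median of -1.28. Ghr, the growth hormone receptor, stood at 119, 127 and 129 against 529, 703 and 571 CPM (-2.27 ± 0.26, edgeR adjusted p = 7.2e-05). Ednra, an endothelin receptor, was at 22.2, 18.6 and 18.8 against 199.6, 142 and 151 CPM (-3.04 ± 0.55, edgeR adjusted p = 0.002). Adrb3, an adrenergic receptor named after its value was seen, held no count in Sca-1+ MSCs and 11.9, 16.8 and 15.4 CPM in CD51+CD140a+ MSCs, at least 95.9-fold higher, with 24.9% of its exons overlapped by the other strand. Thrb, a thyroid hormone receptor, was higher in Sca-1+ MSCs, at 20.1, 32.7 and 37.7 against 6.58, 4.27 and 7.09 CPM (2.33 ± 0.63, edgeR adjusted p = 0.022). Nr3c1, the glucocorticoid receptor, was not called, at 209.8, 258 and 222 against 161, 148 and 172 CPM (0.52 ± 0.30, edgeR adjusted p = 0.29).

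Transcription factors of mesenchymal cells were called in both directions, 16 of 48 (33.3%) higher in Sca-1+ MSCs and 11 (22.9%) higher in CD51+CD140a+ MSCs, with a median of 0.20. Higher in Sca-1+ MSCs were Meox2, a homeobox factor, at 115, 139.6 and 179 against 1.97, 2.06 and 2.96 CPM (5.95 ± 0.48, edgeR adjusted p = 5.8e-06). Osr2, an odd-skipped factor of connective tissue, was at 138, 152 and 122 against 1.86, 4.27 and 5.51 CPM (5.15 ± 0.44, edgeR adjusted p = 9.1e-06). Klf4 was at 115, 140.1 and 113 against 37.5, 24.5 and 38.9 CPM (1.87 ± 0.38, edgeR adjusted p = 0.0044), and Tcf4 had a log2 fold change of 1.08 ± 0.30, with its call held in 14 of 16 alternatives. Higher in CD51+CD140a+ MSCs were Irf1, an interferon-regulated factor, at 157, 154 and 131 against 921, 1172 and 1602 CPM (-3.06 ± 0.35, edgeR adjusted p = 6.6e-05). Runx1 stood at 75.6, 97.1 and 81 against 517, 287 and 513 CPM (-2.38 ± 0.46, edgeR adjusted p = 0.0031) and Zeb2 at 70.8, 85.3 and 57.5 against 248, 241 and 315 CPM (-1.91 ± 0.50, edgeR adjusted p = 0.019).

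Related factors differed in opposite directions in the Ebf and Zeb families, which were named after their values were seen. Ebf2 stood at 104, 110.0 and 76 against 26.5, 35.5 and 35 CPM (1.58 ± 0.34, edgeR adjusted p = 0.0058), against the order of Ebf3 and Ebf1. Zeb1 was at 56.7, 66.1 and 60.1 against 6.72, 15.5 and 13.2 CPM (2.37 ± 0.38, edgeR adjusted p = 0.00095), against that of Zeb2. The limb mesenchyme factor Prrx1 was not called, at 63, 68.6 and 75.6 against 47.7, 50.7 and 50.4 CPM (0.48 ± 0.31, edgeR adjusted p = 0.37), while its relative Prrx2 was higher in Sca-1+ MSCs, at 54.6, 60.9 and 54.5 against 0.301, 1.15 and 1.45 CPM (5.87 ± 0.67, edgeR adjusted p = 7.1e-05).

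Hox genes record position along the body axis. Of 23 tested, 4 (17.4%) were higher in Sca-1+ MSCs and 6 (26.1%) were higher in CD51+CD140a+ MSCs, with a median of -0.43. The 3 Hoxd genes that were called were all higher in Sca-1+ MSCs: Hoxd8 stood at 16.1, 20.6 and 25.4 against 2.57, 3.18 and 2.93 CPM (2.84 ± 0.33, edgeR adjusted p = 7.7e-05) and Hoxd9 at 7.41, 8.7 and 7.45 against 0.109, 0.258 and 0.387 CPM (4.95 ± 0.68, edgeR adjusted p = 0.00029). Hoxd10 was at 1.27, 1.73 and 1.87 CPM against no count, at least 18.4-fold higher. Hoxc10 was at 9.63, 12.3 and 11.5 against 4.18, 4.82 and 4.74 CPM (1.28 ± 0.38, edgeR adjusted p = 0.035), with its call held in 14 of 16 alternatives. Called higher in CD51+CD140a+ MSCs were Hoxa3, Hoxa5, Hoxa6, Hoxb2, Hoxc5 and Hoxc8, of which Hoxc5 stood at 2.66, 2.19 and 2.06 against 8.09, 8.46 and 6.64 CPM (-1.75 ± 0.38, edgeR adjusted p = 0.0066). Hoxb2 stood at 0.885, 0.967 and 1.41 against 4.13, 4.27 and 5.93 CPM (-2.13 ± 0.57, edgeR adjusted p = 0.023) and Hoxa5 at 0.498, 0.407 and 0.375 against 4.97, 4.24 and 5.86 CPM (-3.54 ± 0.56, edgeR adjusted p = 0.00081). Hoxa10, the Hox gene with the most counts, was not called, at 37.1, 34.9 and 42.8 against 68.9, 59.9 and 69.9 CPM (-0.79 ± 0.30, edgeR adjusted p = 0.1), its change being below 2-fold. Over the alternatives 3 (without Sca-1+ replicate 3) to 8 Hox genes were called higher in CD51+CD140a+ MSCs. The iliac bone was part of the Sca-1+ source only, and its part in these differences was not tested.

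**Figure D4:**
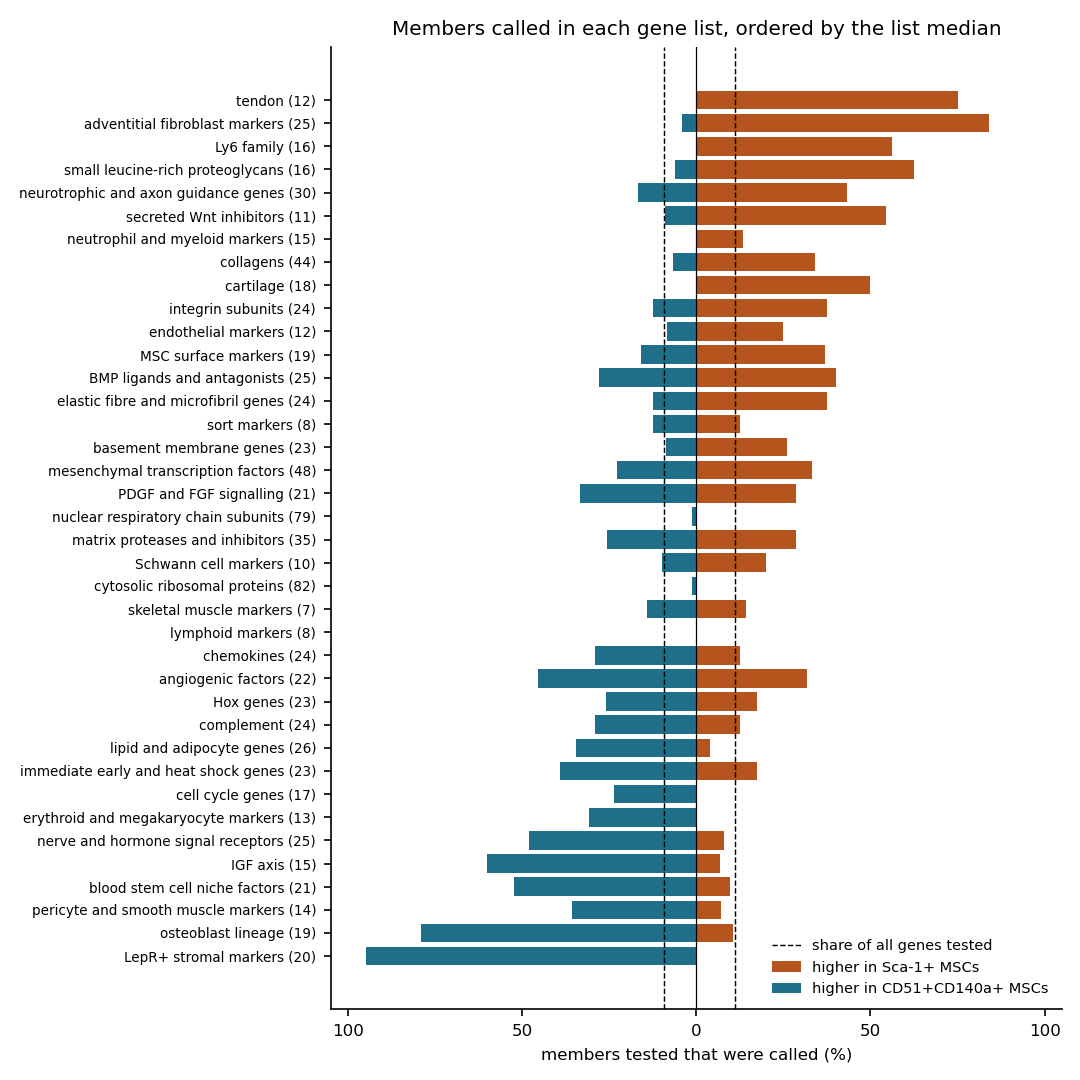
Share of the tested members of each gene list that were called higher in Sca-1+ MSCs (bars to the right) or in CD51+CD140a+ MSCs (bars to the left), ordered by the list median, with the number tested in parentheses and dashed lines at the shares of all genes, 11.2% and 9.30%. The tendon, adventitial and Ly6 lists lie at the top and the leptin receptor-positive stroma and osteoblast lists at the bottom, while the ribosomal and respiratory chain lists hold hardly any called member.

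Finally, RNA of other cell types was measured, since a sort can carry it over. Of 15 neutrophil and myeloid markers, 2 (13.3%) were higher in Sca-1+ MSCs, near the 11.2% of all genes tested. They were Ngp (674, 166 and 504 against 146, 80.5 and 49.6 CPM) and Lyz2 (493, 122 and 254 against 81.7, 49.6 and 31.5 CPM), and their calls held in 9 and 13 of 16 alternatives. Over these, 0 (without Sca-1+ replicate 1 or CD51+CD140a+ replicate 2 or 3) to 7 markers were called higher in Sca-1+ MSCs. The list median was 1.43, and 0.83 without Sca-1+ replicate 1. The markers summed to 1178 to 2914 CPM in Sca-1+ libraries and 1169.7 to 1839 CPM in CD51+CD140a+ libraries, with Mpo the largest part at 906, 604 and 676 against 764, 1409 and 869.5 CPM. Erythroid and megakaryocyte markers summed to 354 to 522 against 789 to 1195 CPM. Of these, 4 of 13 (30.8%), Klf1, Gata1, Ppbp and Pf4, were higher in CD51+CD140a+ MSCs, with a median of -1.10. Over the alternatives 1 to 7 were called, or 1 to 2 with any 1 library left out. Lymphoid markers were near the limit, at 1.17 to 6.84 against 1.39 to 10.7 CPM, and 0 of 8 were called by edgeR, with none at an unadjusted p under 0.05 and 0 to 2 called over the alternatives.

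Of 12 endothelial markers, Tek, Erg and Sox17 (25%) were higher in Sca-1+ MSCs and 1 (8.33%), Vwf, was higher in CD51+CD140a+ MSCs. The median was 0.82 (0.51 without Sca-1+ replicate 2 and 1.66 without CD51+CD140a+ replicate 3), and the list summed to 85.5 to 120.0 against 19.1 to 44.4 CPM. Most of the Sca-1+ sum was Tek, which encodes the angiopoietin receptor Tie2, at 93.3, 60.3 and 56.2 against 2.3, 3.9 and 3.03 CPM (4.51 ± 0.96, edgeR adjusted p = 0.0057), while the defining gene Cdh5 stood at 1.33, 1.37 and 1.08 against 0.328, 0.143 and 0.902 CPM. Of 14 pericyte and smooth muscle markers, 5 (35.7%) were higher in CD51+CD140a+ MSCs and 1 (7.14%) was higher in Sca-1+ MSCs. The median was -2.50, or -1.99 with genes at the detection limit set to their bound, and ranged from -3.59 to -2.03 over the alternatives. The 5 included Myl9 at 5.42, 10.7 and 9.28 against 233, 369 and 261 CPM (-5.09 ± 0.51, edgeR adjusted p = 2.9e-05) and Notch3 at 2.16, 3.61 and 0.234 against 168, 61.7 and 106 CPM (-5.80 ± 1.20, edgeR adjusted p = 0.0049, or -6.56 without Sca-1+ replicate 2). Over the alternatives 3 to 7 were called, with 3 without Sca-1+ replicate 1 or 3, and the call of Lmod1 held in 10 of 16. Cspg4, which encodes the pericyte antigen NG2, was higher in Sca-1+ MSCs, at 179.8, 256 and 128 against 5, 3.38 and 5.12 CPM (5.38 ± 0.94, edgeR adjusted p = 0.0016). Acta2, which encodes smooth muscle actin, was at 18.3, 33 and 29.2 against 3.8, 28.1 and 2.93 CPM. Among 10 Schwann cell markers, Pmp22 and Ncmap (20%) were higher in Sca-1+ MSCs and S100b (10%) was higher in CD51+CD140a+ MSCs, with a median of 0.07. The calls of Ncmap and S100b held in 9 and 12 of 16 alternatives, and Sox10 was at 0 in 5 of the 6 libraries. Of 7 skeletal muscle markers, Tnnt3 (14.3%) was higher in Sca-1+ MSCs and Des (14.3%), which is also in the pericyte list, in CD51+CD140a+ MSCs. Myod1 was at 0 throughout. The part of such cells in the differences above was not tested.

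Genes that respond within minutes to stress and tissue handling differed as well. Of 23 immediate early and heat shock genes, 9 (39.1%) were higher in CD51+CD140a+ MSCs and 4 (17.4%) were higher in Sca-1+ MSCs, with sums of 13731 to 16091 CPM in Sca-1+ and 25058 to 33908 CPM in CD51+CD140a+ libraries, and a median of -0.73. Jun stood at 749.6, 892 and 518 against 2371, 2472 and 4023 CPM (-2.04 ± 0.35, edgeR adjusted p = 0.0013). Klf6, another fast-responding factor, was at 661, 649 and 626 against 1843, 2197 and 2356 CPM (-1.72 ± 0.27, edgeR adjusted p = 0.00074). Fos was not called, at 3588, 3536 and 3325 against 4928, 6144 and 6236 CPM (-0.73 ± 0.38, edgeR adjusted p = 0.24). Higher in Sca-1+ MSCs were Klf4 and the heat shock genes Hsph1 (1.58 ± 0.32), Hspa1b (1.65 ± 0.41) and Hspa1a (1.62 ± 0.33), of which the last 2 share most of their sequence. The heat shock gene Dnajb1 was called the other way, at -1.32, in 16 of 16 alternatives. These genes moved with the population and its digestion, and their part in other differences was not tested.

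Of 17 cell cycle genes, 4 (23.5%) were higher in CD51+CD140a+ MSCs and 0 were higher in Sca-1+ MSCs, with sums of 567 to 637 against 816 to 1140.4 CPM and a median of -0.87. Between 1 and 6 were called over the alternatives. For 13 of the 17, each CD51+CD140a+ library lay above each Sca-1+ library, as in 23.2% of all genes tested, and for 0 the reverse held. Ccnb1 stood at 11.6, 10.8 and 11.9 against 36.8, 19.9 and 31.3 CPM (-1.35 ± 0.33, edgeR adjusted p = 0.013), and Mki67 at 38, 42.3 and 35.1 against 61, 29.2 and 51.2 CPM with overlap. In contrast, genes of the ribosome and of the respiratory chain, listed by symbol, were hardly called. Of 82 cytosolic ribosomal protein genes 1 was called, and of 79 nuclear genes of the respiratory chain 1 was called, with medians of 0.003 and 0.12. These 2 calls were Rpl39l and Cox6b2, each higher in CD51+CD140a+ MSCs, and their calls held in 9 and 8 of 16 alternatives. The ribosomal genes summed to 1715 to 1834 CPM in Sca-1+ and 1346 to 1725 CPM in CD51+CD140a+ libraries. Their sums were 2605 to 11655 CPM in Itga8+ MSCs and 3692 to 12579 CPM in Itga8-Alcam+ BLCs, a difference that was not tested. Their low level limits what this list can show in the 6 libraries.

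**Figure D5:**
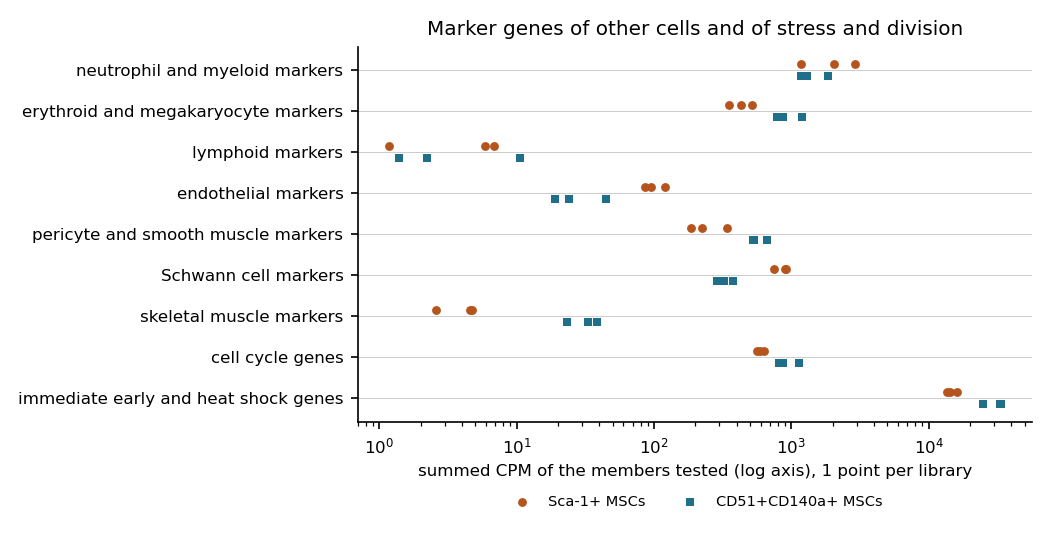
Summed CPM of marker genes of other cell types, of cell division and of stress, on a log axis, with 1 point per library, circles for Sca-1+ MSCs and squares for CD51+CD140a+ MSCs. The myeloid and lymphoid sums overlap, the endothelial and Schwann sums are higher in Sca-1+ MSCs, and the erythroid, pericyte, muscle, cell cycle and immediate early sums are higher in CD51+CD140a+ MSCs. A sum can rest on few members: the median log2 fold change of the Schwann list was 0.07, and Des belongs to both the muscle and the pericyte list.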

How the data were processed

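RNA-seq was performed on sorted cells, with 2000 cells per library and 3 libraries for each of 4 populations. The deposited values are raw read counts per Ensembl gene. Per the labels, the authors used FastQC 0.11.7, Trimmomatic 0.38, HISAT2 2.1.0, SAMtools 1.9 and featureCounts 1.6.3 on mm10, whereas the paper's methods name TopHat and Bowtie2; which were used here could not be settled. Annotation release and strand setting are not given in the sources used here, and the library kit does not mark strand.

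Gene symbols, coordinates and exon lengths for TPM were taken from GENCODE M21 (GRCm38), and 259 of 49585 IDs had no entry. Genes with at least 0.5 CPM in 1 library were tested with the edgeR 4.0.16 quasi-likelihood test (R 4.3.3, TMM normalisation) in a single fit of all 12 libraries, with Sca-1+ minus CD51+CD140a+ as the contrast. Calls required a Benjamini-Hochberg adjusted p under 0.1 and a fold change above 2, and SEs were derived from the F statistic. Where a population held no count in its 3 libraries, the fold was computed against 3 counts per library and written as a lower bound; for 1 to 9 counts, a ratio with an exact 95% interval was computed. Such intervals and limits cover counting error only, since reads without molecular identifiers are not independent molecules. The script was tested on simulated data.

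Genes were named by rule: the markers and sort genes, the 12 most abundant called genes per direction with a change over 8-fold and no overlap, the 5 largest per direction, members of the stromal, skeletal, matrix and other-cell lists, and up to 4 most abundant called members of the other lists. Members given as not called, and others where stated, were chosen after their values were seen. The comparison, its members and the lists were chosen with earlier results of these data known. List counts cover tested members; in the list with the most losses, 16 of 39 Hox genes were not tested. Uniqueness is the share of 50-base words of a gene's annotated exons found in no other gene.

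Replicates of a population correlated at Pearson r = 0.962 to 0.976 over genes, and 0.833 to 0.856 between populations, and replicates differed beyond counting noise, so each was counted once. The 10 most abundant genes took 19.8% to 20.2% of Sca-1+ and 12.2% to 13.0% of CD51+CD140a+ counts. The alternatives were DESeq2 1.42.0, limma-trend (limma 3.58.1), other scaling, filters, thinning to the smallest total, a fit of the 6 libraries alone, a replicate block, a stricter threshold and leaving out each library, 16 in all. Figures were drawn with matplotlib 3.10.9. Some genes are not reported here.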

Additional observations from a re-analysis of the deposited data

How the results depend on the processing

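The counts of genes higher in Sca-1+ and in CD51+CD140a+ MSCs, 2093 and 1734, stayed within 1.5 times under all 16 alternatives, and no called gene was called in the opposite direction in any of them. DESeq2 gave 2323 and 1926, limma-trend 2067 and 1962, and a fit of the 6 libraries alone 2326 and 2333. Library totals without TMM gave 1906 and 2032, with a median of -0.147 on the log2 scale over the tested genes and the Sca-1+ share of calls at 48.4% in place of 54.7%. Leaving out 1 library gave 1665 to 1767 and 1226 to 1497. An adjusted p under 0.05 gave 1698 and 1359.

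Whether a replicate number marks a shared mouse or day is not given in the labels. Deviations of same-numbered libraries from their population means correlated at 1.55e-05, -0.0669 and -0.0656, and those of differently numbered libraries at -0.0128 to 0.0663. Deviations within a population of 3 libraries sum to 0, so these values cannot settle a pairing. A fit with the number as a replicate block gave 1808 and 1446 genes. The 4 markers kept their direction and call throughout, with ranges over left-out libraries of 8.44 to 9.43 for Ly6a, 8.75 to 11.15 for Col6a6, -6.71 to -6.45 for Cxcl12 and -4.97 to -4.85 for Lepr. Of 353 called list members and named genes, 279 kept their call in every alternative that tested them (15 or 16). Ptprc, not called, stood at 0.43 and ranged from -0.22 (without Sca-1+ replicate 1, its highest library) to 0.68 when libraries were left out. Depth was lower in the Sca-1+ libraries, and thinning to the smallest total gave 2040 and 1712.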

Other observations

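Genes by which connective tissue speaks to nerves differed between the populations. Of 30 neurotrophic and axon guidance genes tested, 13 (43.3%) were higher in Sca-1+ MSCs and 5 (16.7%) were higher in CD51+CD140a+ MSCs, with a median log2 fold change of 2.84, or 2.33 with genes at the detection limit set to their bound. The 5 ranged from 4 to 9 over the alternatives, and the median from 0.97 (without Sca-1+ replicate 2) to 3.02. Sema3c, given above, and Sema3e, at 224, 321 and 259.9 against 0.546, 0 and 0.0966 CPM (10.22 ± 0.96, edgeR adjusted p = 1.8e-05, or 12.34 without CD51+CD140a+ replicate 1), encode class 3 semaphorins, which repel or attract growing axons and vessels. Nrp1, which encodes the semaphorin receptor neuropilin 1, was higher in CD51+CD140a+ MSCs, at 145, 125 and 83.1 against 860.4, 852 and 1146 CPM (-3.02 ± 0.46, edgeR adjusted p = 0.00056). Ntn4, a netrin, stood at 179.7, 204 and 201 against 3.72, 2.87 and 2.8 CPM (5.96 ± 0.48, edgeR adjusted p = 5.6e-06), and Ntrk2, the receptor of brain-derived neurotrophic factor, at 162, 133 and 77.4 against 1.26, 1.89 and 1.74 CPM (6.24 ± 0.45, edgeR adjusted p = 3.2e-06). Efnb1, which encodes an ephrin, was higher in CD51+CD140a+ MSCs at 10.2, 8.55 and 5.9 against 69.6, 68.7 and 106 CPM (-3.31 ± 0.41, edgeR adjusted p = 0.00012).

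Growth factors of the platelet-derived (PDGF) and fibroblast (FGF) families were called in both directions, 6 of 21 (28.6%) higher in Sca-1+ MSCs and 7 (33.3%) higher in CD51+CD140a+ MSCs, with a median of 0.19, or 0.37 with genes at the detection limit set to their bound. Fgf9 was at 31.6, 27.5 and 66.2 CPM in Sca-1+ MSCs and held no count in CD51+CD140a+ MSCs, at least 474-fold higher, and Fgf2 stood at 27.5, 35.8 and 37.4 against 6.23, 6.88 and 4.38 CPM (2.52 ± 0.43, edgeR adjusted p = 0.0014). The receptor Fgfr2 was at 71, 89.7 and 87.4 against 1534, 1925 and 1659 CPM (-4.37 ± 0.57, edgeR adjusted p = 0.00019) and the ligand Fgf7 at 18.6, 26.2 and 19.9 against 231, 199 and 246 CPM (-3.39 ± 0.63, edgeR adjusted p = 0.0025), both higher in CD51+CD140a+ MSCs.

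Of 22 angiogenic factors, 7 (31.8%) were higher in Sca-1+ MSCs and 10 (45.5%) were higher in CD51+CD140a+ MSCs, with a median of -0.27. Over the alternatives these counts were 4 to 8 and 9 to 10, with 4 to 5 higher in Sca-1+ MSCs when any 1 library was left out, and the calls of Vegfd and Angptl2 held in 9 and 8 of 16 alternatives. Vegfa, the main growth factor of vessels, stood at 69.1, 98.6 and 45.8 against 641, 532 and 661 CPM (-3.10 ± 0.60, edgeR adjusted p = 0.003) and Angptl4, which inhibits lipoprotein lipase, at 165, 124 and 225 against 1021, 1158 and 1373 CPM (-2.79 ± 0.32, edgeR adjusted p = 7.8e-05). Serpinf1, which encodes the vessel inhibitor PEDF, was at 2319, 2385 and 2533 against 198, 246 and 262 CPM (3.36 ± 0.59, edgeR adjusted p = 0.0016), higher in Sca-1+ MSCs. Of 26 lipid and adipocyte genes, 9 (34.6%) were higher in CD51+CD140a+ MSCs and 1 (3.85%) was higher in Sca-1+ MSCs, with a median of -0.64. The calls included Adipoq, Lpl and Cebpb (182, 219.5 and 173 against 467, 872 and 928 CPM, with 20.7% of its exons overlapped by the other strand), but not the lipid droplet gene Plin2 (63.4, 52.9 and 64.8 against 64.8, 89.8 and 66.8 CPM), the fatty acid synthase gene Fasn (81.3, 100.4 and 40.8 against 71, 40.8 and 59 CPM) or the carrier gene Fabp4 (3.43, 2.59 and 1.59 against 5.85, 13.2 and 9.95 CPM). Of the other droplet genes, Plin1 was called higher in CD51+CD140a+ MSCs (72 counts against 0) and Plin4 higher in Sca-1+ MSCs (32 against 1), held in 12 of 16 and 9 of 15 alternatives.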
